A study of Mus musculus with 9 samples.

Results

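The genes described here encode secreted factors of the vascular endothelial growth factor (VEGF) and angiopoietin families. They are the 5 VEGF family ligands Vegfa, Vegfb, Vegfc, Vegfd and Pgf, the angiopoietin Angpt2, and the angiopoietin-like factors Angptl1, Angptl2 and Angptl4. They were chosen by symbol, and are 9 of the 30579 genes in the deposited table. RNA was sequenced from mesenchymal stromal cells, the support cells of the marrow, sorted by flow cytometry from the long bones of mice. The first of 3 groups is labelled aged Thbs1 knockout (18 months), the second is aged control (18 months) and the last is young control (3 months), with 3 libraries in each. Endothelial cells of all mice had been tagged in vivo with an anti-VE-cadherin antibody, given 10 minutes before death, and each library was made from 2 ng of total RNA with a SMART-Seq v4 kit. The sources used here do not give strain, sex, the sorting gates or how Thbs1 was deleted. Nothing in the labels says whether libraries of a group came from separate animals, so the spread behind each p-value may be technical.

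VEGF ligands act on receptor tyrosine kinases of endothelial cells. Vegfa binds Kdr and Flt1 and drives the growth and leakiness of blood vessels, Vegfb and Pgf bind Flt1, and Vegfc and Vegfd, once cut by proteases, bind Flt4 and drive the growth of lymphatic vessels. Angiopoietins bind the endothelial receptor Tek. Angpt1 activates it, while Angpt2 can block or activate it depending on the setting. The angiopoietin-like proteins share the fold of the angiopoietins but do not bind Tek. Angptl4 inhibits lipoprotein lipase, the enzyme that frees fatty acids from circulating triglycerides, and Angptl2 binds integrins and, in mouse, the immune receptor Pirb. In the marrow, stromal cells around the sinusoids are a known source of Vegfa, Vegfc and Angpt1.

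Values are FPKM, fragments per kilobase of transcript scaled by the mapped fragments of the library, as deposited. An estimated 17.6 to 27.65 M reads (M, mega) lie behind a library, and 13503 to 18382 genes were above 0. All 9 marrow stroma markers looked at (among them Cxcl12, Lepr and Adipoq) were detected, with summed levels of 6591 to 9068 FPKM in labelled-knockout, 4281 to 6230 FPKM in aged control and 8507 to 9589 FPKM in young control libraries. Thbs1 itself had 24.3, 44.6 and 37.1 FPKM in the libraries labelled knockout and 35.6, 41.9 and 36.9 FPKM in aged controls. These ranges overlap, with a log2 fold change of -0.15 (SE 0.26, n = 3 each, adjusted p = 0.801 by limma, exact permutation p = 0.9, two-sided, where 0.1 is the smallest possible). The fold change of Thbs1 was -0.33 without replicate 2 labelled knockout (adjusted p = 0.320 by limma), with median-ratio rescaling as well it was -0.63 (adjusted p = 0.0889 by limma), and after rescaling to marrow stroma markers in all 9 libraries it was -0.70 (adjusted p = 0.218 by limma). No setting tried called Thbs1, and the group is called by its label throughout. Whether the deletion leaves a transcript is not given in the sources used here. Replicate 2 labelled knockout stood apart from its group. Its Pearson correlations across genes were 0.738 to 0.811 with the other 8 libraries. With replicates 1 and 3 labelled knockout they were 0.765 and 0.794, beside 0.948 between those 2. Young and aged controls had 0.774 to 0.845 with each other. It also had the fewest genes above 0, 13503, beside 16557 to 18382 in the other 8 libraries. Results that rest on this library are therefore also given without it.

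RNA of other cell types differed between groups. Immunoglobulin genes took 0.162%, 19.2% and 2.36% of estimated reads in labelled-knockout replicates 1, 2 and 3, 21.6%, 4.27% and 31.9% in aged controls and at most 0.170% in young controls. The summed level of 8 pan-leukocyte markers was 4.84, 584 and 93.6 FPKM in labelled-knockout libraries, 524 to 1040 FPKM in aged controls and 5.11 to 15.2 FPKM in young controls. Cd52, a surface protein of mature lymphocytes, made up 544.91 and 76.52 FPKM of the sums in labelled-knockout replicates 2 and 3. Without it the sum of the other 7 markers was 2.94, 39.1 and 17.0 FPKM in labelled-knockout libraries, 597, 734 and 107 FPKM in aged controls and 4.08 to 8.77 FPKM in young controls. Of 7 pan-leukocyte markers tested, several of which reached the filter on low values only through aged controls, 6 were called higher in aged against young controls and 6 lower in labelled-knockout libraries against aged controls, which is given as a description. Osteoblast markers (8 genes) summed to 6035, 2569 and 10371 FPKM in labelled-knockout libraries, 1851 to 2927 FPKM in aged controls and 9206 to 11979 FPKM in young controls. Chondrocyte markers (8 genes) summed to 1068, 144 and 2861 FPKM in labelled-knockout libraries, 12.3 to 15.6 FPKM in aged controls and 112 to 279 FPKM in young controls. Smooth muscle and pericyte markers (7 genes) summed to 143 to 340 FPKM in labelled-knockout libraries, 52.4 to 63.6 FPKM in aged controls and 89.0 to 134 FPKM in young controls. No member of these 4 lists was at 0 in every library. In pooled RNA, fewer cells of a type and less RNA per cell cannot be told apart, and the part of these other cells in the results that follow was not tested.

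**Figure D1:**
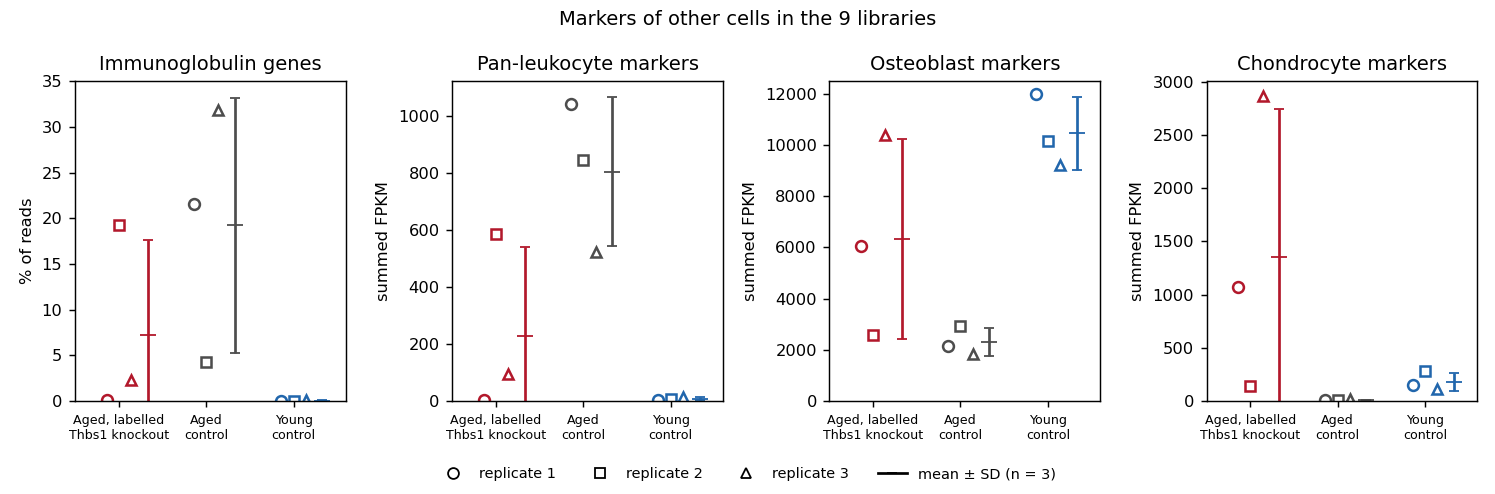
Share of estimated reads in immunoglobulin genes (%) and summed FPKM of pan-leukocyte, osteoblast and chondrocyte markers in each library, with points for replicates and bars for the mean ± SD (n = 3, cut off at 0). Immunoglobulin RNA was high in the 3 aged controls and in labelled-knockout replicate 2, where 544.91 of the 584 FPKM of pan-leukocyte markers were Cd52, and chondrocyte RNA was highest in labelled-knockout replicates 1 and 3.

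The order of the 9 factors by FPKM, a level per length of transcript, was much alike in the 3 groups. Angptl4 led on average, with 181 ± 87.9 FPKM in labelled-knockout libraries, 63.4 ± 9.57 FPKM in aged controls and 269 ± 35.6 FPKM in young controls (SD, n = 3 each). Vegfa followed with 121 ± 23.6, 62.5 ± 19.7 and 129 ± 25.9 FPKM in the same groups, and Vegfc with 101 ± 29.9, 56.5 ± 14.5 and 117 ± 14.5 FPKM (SD, n = 3 each). In young controls the ranges of Angptl4 and Vegfa did not overlap, whereas in labelled-knockout libraries and in aged controls they did. Vegfa and Vegfc overlapped in all 3 groups. Angptl1, Angpt2 and Pgf came next in every group. Vegfb and Angptl2 were in the lower ranks, with mean levels of 15.9 and 24.8 FPKM in labelled-knockout libraries, 8.74 and 6.90 FPKM in aged controls, and 12.6 and 11.9 FPKM in young controls. The ranges of these 2 genes overlapped in every group. Vegfd was last throughout, at 1.70 FPKM or less in every library.

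**Figure D2:**
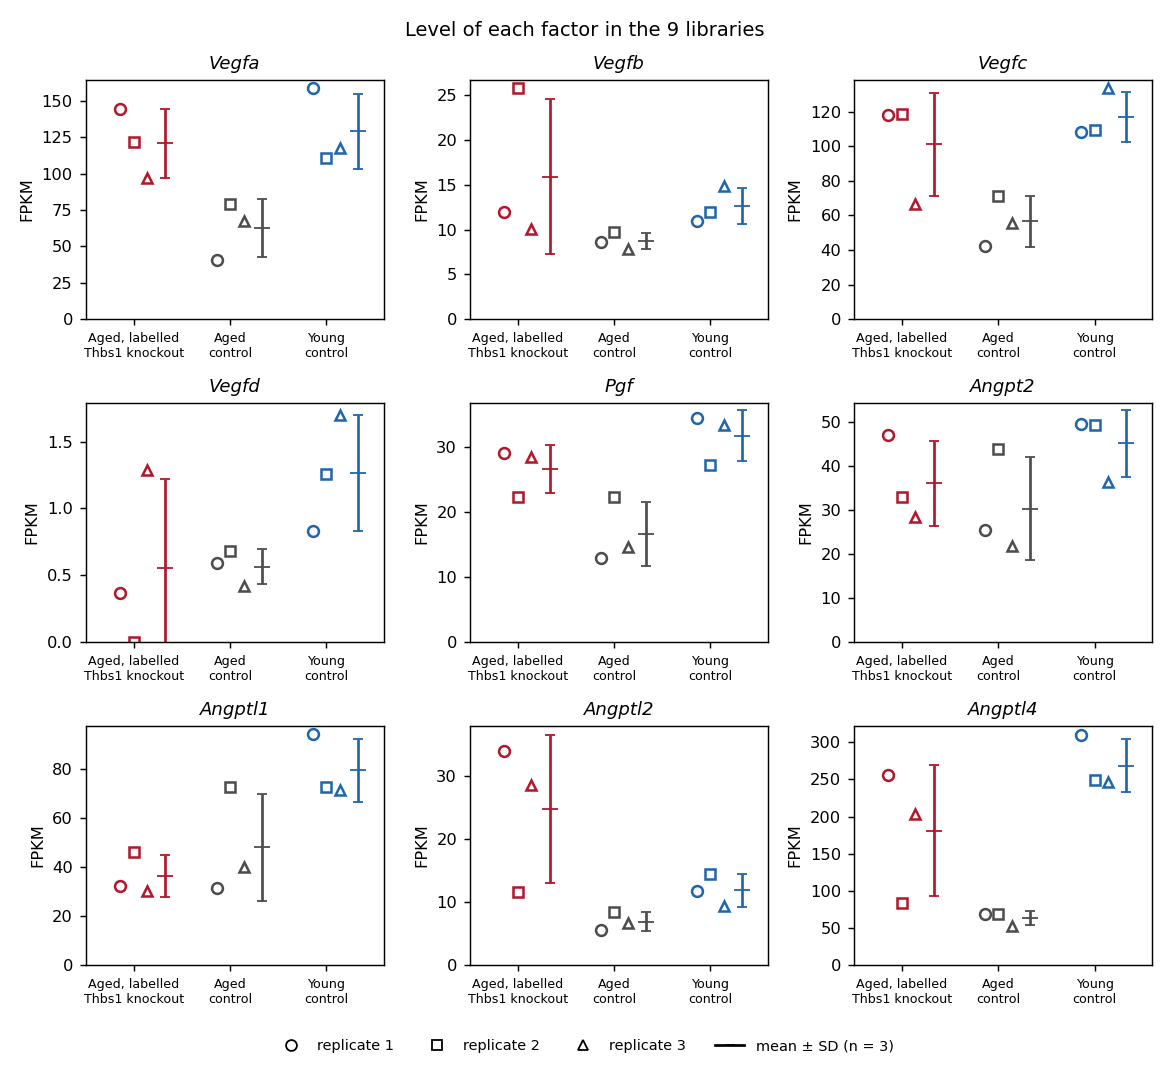
Level of each of the 9 factors in every library, in FPKM, with points for replicates and bars for the mean ± SD (n = 3, cut off at 0). Angptl4 lies at 246.52 FPKM or above in all 3 young controls and at 69.4 FPKM or below in all 3 aged controls, and labelled-knockout replicate 2 is the lowest of its group for Angptl4 and Angptl2 and the highest for Vegfb.

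In aged against young controls, Angptl4 was the member that passed the test, and it was lower. That is 1 of 9 members, against 4.04% of the 11988 genes tested called in either direction and 1.47% called lower. All 9 members had a fold change below 0, as did 74.5% of all genes tested. For 7 of 9 members every aged control was below every young control, against 37.4% of all genes tested. Of these members, Vegfb and Angptl2 overlapped once immunoglobulin genes were left out. An unadjusted p under 0.05 was reached by 5 of 9 members, against 21.7% of all genes, and by 3 of 9 with immunoglobulin genes left out. The median log2 fold change of the 9 members was -0.80, and that of all genes tested was -0.28. With immunoglobulin genes left out these medians were -0.45 and 0.0026. The 9 marrow stroma markers ran much like the members as deposited, with a median of -0.79 and 9 of 9 below 0. Of these markers 5 had an unadjusted p under 0.05, 6 did not overlap and 1 was called. When replicate 2 labelled knockout was left out 5 of 9 members were called, in a fit that called 23.1% of all genes tested. Genes of the immediate early response, which handling of cells can raise, had a median of -0.33 over 11 genes, near the -0.28 of all genes. Of these 11 genes, 8 were below 0 and 3 above, and 3 had an unadjusted p under 0.05, shares near those of all genes. The stress factor Atf3 was the 1 called (-2.14, adjusted p = 0.00763 by limma).

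Between labelled-knockout libraries and aged controls, 0 of 9 members passed the adjusted test, against 3.48% of all genes tested. The 2 largest differences were those of Angptl2 and Angptl4, both higher in labelled-knockout libraries, and both passed once replicate 2 labelled knockout was left out, in a fit that called 16% of all genes tested. Of the 9 members, 7 had a fold change above 0, against 55.7% of all genes tested. For 5 members, Vegfa, Vegfb, Pgf, Angptl2 and Angptl4, every labelled-knockout library was above every aged control, against 16.6% of all genes. Of these members, Vegfb overlapped once immunoglobulin genes were left out. An unadjusted p under 0.05 was reached by 5 of 9 members, against 19.8% of all genes, and the median log2 fold change was 0.69 over the members and 0.07 over all genes tested. With immunoglobulin genes left out, 4 of 9 members reached that level, and these medians were 0.58 and -0.04. The 9 marrow stroma markers moved the same way as deposited, with a median of 0.53 and 8 of 9 above 0. Of these markers 1 had an unadjusted p under 0.05, 2 did not overlap and 0 were called. This comparison and the previous one share the aged controls, so a level that is low in those 3 libraries enters both. The 11 immediate early genes moved the same way as the members, with a median of 0.76, 5 of 11 at an unadjusted p under 0.05, all higher, and Atf3 called. Atf3 had 167, 148 and 236 FPKM in labelled-knockout libraries, 21.8, 25.8 and 21.2 FPKM in aged controls and 142, 93.2 and 86.2 FPKM in young controls. Their summed level, 9336 to 12692 FPKM in labelled-knockout libraries, 5853 to 11343 FPKM in aged controls and 9554 to 11331 FPKM in young controls, overlapped between groups, and its part in the members' differences was not tested.

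Between labelled-knockout libraries and young controls, 0 of 9 members passed the adjusted test, against 0.025% of all genes tested. An unadjusted p under 0.05 was reached by 2 members, Angptl1 (lower) and Angptl2 (higher), against 8.63% of all genes. Angptl1 was the member whose ranges did not overlap, lower in labelled-knockout libraries, against 13.4% of all genes. The median log2 fold change was -0.25 over the members and -0.16 over all genes tested.

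**Figure D3:**
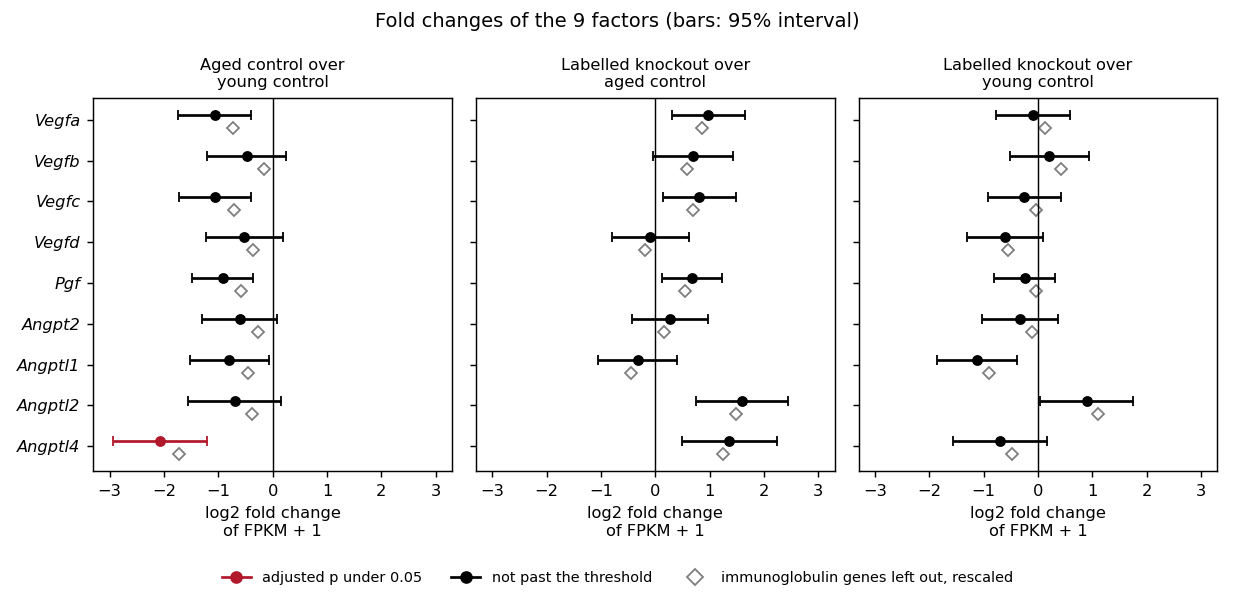
Log2 fold changes of FPKM + 1 for the 9 factors in the 3 comparisons, with points for the limma estimate, bars for its 95% interval and diamonds for the estimate after leaving out immunoglobulin genes and rescaling. Angptl4 in aged over young controls (-2.07) is the point past the adjusted threshold, and the interval of Angptl2 in labelled-knockout over aged controls (0.74 to 2.45) lies farthest above 0.

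Vegfa, the main growth factor for blood vessels, lies on chromosome 17 of GRCm38 (46016993 to 46032369, minus strand). Across the 9 libraries its levels moved with those of Vegfc (Pearson r = 0.91) and about as closely with those of Pgf (0.89). For Vegfa and Vegfc, and for Angptl2, which differed most in labelled-knockout libraries, the 250 bases before the RefSeq start of transcription (GRCm38.p6) are shown 5′ to 3′ on the strand of the gene. Capitals mark matches on either strand to the GC box GGGCGG, or to the cAMP response core TGACGT. The first window, at chr17:46032378-46032627 (minus strand), belongs to Vegfa, the second, at chr8:54077282-54077531 (plus strand), to Vegfc, and the last, at chr2:33215711-33215960 (plus strand), to Angptl2.
Vegfa: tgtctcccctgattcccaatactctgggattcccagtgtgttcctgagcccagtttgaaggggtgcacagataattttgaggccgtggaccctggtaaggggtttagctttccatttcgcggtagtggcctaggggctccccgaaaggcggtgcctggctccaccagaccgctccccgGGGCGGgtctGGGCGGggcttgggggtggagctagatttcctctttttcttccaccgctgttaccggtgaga
Vegfc: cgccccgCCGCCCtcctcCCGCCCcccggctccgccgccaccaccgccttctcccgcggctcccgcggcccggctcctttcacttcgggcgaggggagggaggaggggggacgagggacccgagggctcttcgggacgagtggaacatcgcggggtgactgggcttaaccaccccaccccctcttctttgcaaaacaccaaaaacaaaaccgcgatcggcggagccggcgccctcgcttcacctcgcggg
Angptl2: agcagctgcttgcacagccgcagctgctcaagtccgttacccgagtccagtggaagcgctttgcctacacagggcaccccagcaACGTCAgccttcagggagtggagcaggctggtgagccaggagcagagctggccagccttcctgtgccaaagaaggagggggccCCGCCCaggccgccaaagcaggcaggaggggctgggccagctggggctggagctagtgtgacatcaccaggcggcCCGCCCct
Each of these windows holds 2 GC boxes, and the Angptl2 window also holds 1 cAMP response core. Among 32851 RefSeq windows of the same length, 32.74% hold a GC box and 6.47% a cAMP response core. No match was found in these 3 printed windows to the hypoxia response core ACGTG, the nuclear receptor core AGGTCA or the TATA box TATAAA, which 16.57%, 14.02% and 12.37% of all windows hold. Of the 9 members 7 matched a RefSeq window, and Angpt2 and Angptl4 were not matched. A further Vegfa window, which touches an exon and is not shown, holds 1 hypoxia response core, 1 cAMP response core that overlaps it and 1 GC box. These matches describe letters in a window and say nothing of binding.

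Vegfa had 144, 122 and 96.9 FPKM in labelled-knockout libraries, 40.8, 79.2 and 67.6 FPKM in aged controls and 158.5, 111 and 117 FPKM in young controls. Every aged control was below every library of the other 2 groups, which overlapped each other. Against young controls, aged controls had a log2 fold change of -1.07 (SE 0.30, adjusted p = 0.0832 by limma). The log2 fold change was 0.97 in labelled-knockout libraries against aged controls (SE 0.30, adjusted p = 0.116 by limma), and against young controls it was -0.09 (95% interval -0.77 to 0.58). Without replicate 2 labelled knockout, the difference between aged and young controls had an adjusted p of 0.0299 by limma with the same fold change. That fit called 23.1% of all genes tested, and the other 8 fits with 1 library left out did not call Vegfa.

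Vegfb and Pgf, the ligands that use Flt1 alone among the tyrosine kinase receptors, differed in how steady they were. Pgf (chromosome 12, 85166635 to 85177790, minus strand) had 29.1, 22.4 and 28.4 FPKM in labelled-knockout libraries, 12.98, 22.2 and 14.7 FPKM in aged controls and 34.5, 27.3 and 33.4 FPKM in young controls. All aged controls were below all libraries of both other groups, though aged replicate 2 and labelled-knockout replicate 2 nearly met. Its log2 fold change was -0.92 in aged against young controls (SE 0.25, adjusted p = 0.0745 by limma) and 0.67 in labelled-knockout libraries against aged controls (SE 0.25, adjusted p = 0.176 by limma). Without replicate 2 labelled knockout, the adjusted p of the difference between aged and young controls was 0.0189 by limma. That fit called 23.1% of all genes tested, and the other 8 fits with 1 library left out did not call Pgf.

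Vegfb (chromosome 19, 6982473 to 6987651, minus strand) had 11.9, 25.8 and 10.1 FPKM in labelled-knockout libraries, 8.64, 9.71 and 7.87 FPKM in aged controls and 11, 12 and 14.9 FPKM in young controls. Labelled-knockout replicate 2 was the highest of all 9 libraries, the other labelled-knockout libraries overlapped young controls, and aged controls were the lowest. This order depended on the scaling. With immunoglobulin genes left out, aged controls had 9.54, 9.55 and 9.96 FPKM and young controls 9.62 to 13.1 FPKM. Labelled-knockout replicate 3 was then the lowest, at 9.07 FPKM. The log2 fold change was -0.48 in aged against young controls (SE 0.33, adjusted p = 0.424 by limma) and 0.69 in labelled-knockout libraries against aged controls (SE 0.33, adjusted p = 0.278 by limma). Without replicate 2 the second difference was 0.30. Against young controls it was 0.21, and -0.18 without replicate 2, so its direction rests on that library.

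Vegfc (chromosome 8, 54077606 to 54187096, plus strand), the main growth factor for lymphatic vessels, had 118, 118 and 66.5 FPKM in labelled-knockout libraries, 42.4, 71.5 and 55.7 FPKM in aged controls and 108, 109 and 134 FPKM in young controls. Aged controls were below all young controls, and labelled-knockout replicate 3 fell within the aged range while replicates 1 and 2 lay in the young one. The log2 fold change was -1.06 in aged against young controls (SE 0.30, adjusted p = 0.0826 by limma) and 0.81 in labelled-knockout libraries against aged controls (SE 0.30, adjusted p = 0.174 by limma). Without replicate 2 labelled knockout, the adjusted p of the difference between aged and young controls was 0.0246 by limma. That fit called 23.1% of all genes tested, and the other 8 fits with 1 library left out did not call Vegfc. The ratio of Vegfa to Vegfc lay between 0.878 and 1.47. It was 1.22, 1.03 and 1.46 in labelled-knockout libraries, 0.961, 1.11 and 1.21 in aged controls and 1.47, 1.01 and 0.878 in young controls, with overlap between all groups.

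Vegfd (chromosome X, 164373378 to 164402650, plus strand), the other ligand of Flt4, was the lowest of the 9 factors. It had 0.37, 0 and 1.29 FPKM in labelled-knockout libraries, 0.59, 0.68 and 0.42 FPKM in aged controls and 0.83, 1.26 and 1.70 FPKM in young controls, which corresponds to an estimated 23, 0 and 66 reads, 37, 45 and 21 reads, and 39, 53 and 80 reads. All aged controls were below all young controls, while labelled-knockout libraries overlapped both. In labelled-knockout replicate 2 it was listed at 0, which allows a level of up to 0.0690 FPKM (3 reads, counting error only). Its log2 fold change was -0.52 in aged against young controls (SE 0.31, adjusted p = 0.369 by limma) and -0.09 in labelled-knockout libraries against aged controls (SE 0.31, adjusted p = 0.904 by limma), and the second turned to 0.18 without replicate 2 labelled knockout.

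Angpt2, the ligand that can oppose Angpt1 at Tek, lies on chromosome 8 (18690263 to 18741562, minus strand), within Mcph1 on the opposite strand but with no exonic overlap. It had 46.8, 32.8 and 28.3 FPKM in labelled-knockout libraries, 25.3, 43.7 and 21.8 FPKM in aged controls and 49.5, 49.3 and 36.3 FPKM in young controls. The 3 groups overlapped, with aged replicate 2 among the high libraries and aged replicates 1 and 3 the lowest. Its log2 fold change was -0.61 in aged against young controls (SE 0.31, adjusted p = 0.294 by limma) and 0.27 in labelled-knockout libraries against aged controls (95% interval -0.42 to 0.97, adjusted p = 0.672 by limma). Angpt1 had 28.6, 14.5 and 26.7 FPKM in labelled-knockout libraries, 14.8, 24.0 and 18.7 FPKM in aged controls and 38.0, 34.0 and 37.1 FPKM in young controls. Angpt1 did not pass the test in any comparison, although all aged controls and all labelled-knockout libraries were below all young controls. The other angiopoietin family ligands, 4 of 6 tested, Angpt1 among them, gave 0 calls in any comparison by limma and 2, 0 and 2 at an unadjusted p under 0.05 in the order of the comparisons above. The shares of all genes tested at that level were 21.7%, 19.8% and 8.63%. The ratio of Angpt1 to Angpt2 was 0.611, 0.443 and 0.946 in labelled-knockout libraries, 0.586, 0.549 and 0.854 in aged controls and 0.768, 0.690 and 1.02 in young controls, and the groups overlapped.

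Angptl4, the inhibitor of lipoprotein lipase, was the member called lower in aged than in young controls. It lies on chromosome 17 (33773750 to 33781830, minus strand). It had 256, 84.0 and 203 FPKM in labelled-knockout libraries, 68.5, 69.4 and 52.4 FPKM in aged controls and 309.55, 249 and 247 FPKM in young controls. Aged controls lay far below young controls with no overlap, labelled-knockout replicates 1 and 3 lay in or near the young range, and labelled-knockout replicate 2 lay just above the aged one. In aged against young controls the log2 fold change was -2.07 (SE 0.38, n = 3 each, adjusted p = 0.0254 by limma), and the mean FPKM was 0.236 times that of young controls. The call was lost when any 1 of the 6 control libraries was left out, with adjusted p of 0.0616 to 0.144 by limma, while the fold change stayed between -2.14 and -1.94. The call was also lost with no filter on low values and with replicate number as a block. It held without any 1 labelled-knockout library, and its adjusted p was 0.000912 by limma without replicate 2. Summed osteoblast markers were also lower in all aged controls than in all young controls, and their part in this difference was not tested.

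Against aged controls, Angptl4 in labelled-knockout libraries had a log2 fold change of 1.36 (SE 0.38, adjusted p = 0.0931 by limma) and a mean FPKM 2.85 times that of aged controls. Without replicate 2 labelled knockout it was 1.84 (adjusted p = 0.00206 by limma), and with immunoglobulin genes left out it was 1.24 (adjusted p = 0.0413 by limma). Against young controls it was -0.70 (95% interval -1.57 to 0.16, adjusted p = 0.616 by limma), and -0.23 without replicate 2. Labelled-knockout replicate 2, the lowest of its group for Angptl4, had 19.2% of its estimated reads in immunoglobulin genes. It also had the lowest osteoblast and chondrocyte sums of its group. With immunoglobulin genes left out, its Angptl4 level was 108 FPKM, beside 231 and 183 FPKM in replicates 1 and 3. The part of other cells in its Angptl4 level was not tested.

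Angptl2, which binds integrins and Pirb, lies on chromosome 2 (33216069 to 33247717, plus strand), within Ralgps1 on the opposite strand but with no exonic overlap. It had 34.1, 11.6 and 28.7 FPKM in labelled-knockout libraries, 5.52, 8.49 and 6.68 FPKM in aged controls and 11.8, 14.5 and 9.32 FPKM in young controls. Labelled-knockout replicates 1 and 3 were far above all 6 controls, labelled-knockout replicate 2 lay within the young range, and aged controls were the lowest. With immunoglobulin genes left out, aged and young controls overlapped and labelled-knockout replicate 2 lay above both. In labelled-knockout libraries against aged controls the log2 fold change was 1.59 (SE 0.38, n = 3 each, adjusted p = 0.0552 by limma), and the mean FPKM was 3.59 times that of aged controls. Without replicate 2 labelled knockout it was 2.05 (adjusted p = 0.00159 by limma), and with immunoglobulin genes left out it was 1.48 (adjusted p = 0.0266 by limma).

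Against young controls, Angptl2 had a log2 fold change of 0.89 in labelled-knockout libraries (SE 0.38, adjusted p = 0.556 by limma), and 1.35 without replicate 2 (adjusted p = 0.0616 by limma). In aged against young controls it was -0.70 (SE 0.38, adjusted p = 0.318 by limma), and the adjusted p of that difference was 0.0415 by limma without replicate 2 labelled knockout. That fit called 23.1% of all genes tested, and the other 8 fits with 1 library left out did not call this difference. The 2 libraries with high Angptl2 were also the 2 with the highest sums of chondrocyte markers, 1068 and 2861 FPKM, and the part of chondrocyte RNA in the difference was not tested.

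Angptl1, a secreted relative of the angiopoietins, lies on chromosome 1 (156838562 to 156861078, plus strand), within Ralgps2 on the opposite strand, and 465 bases of its exons overlap exons of genes on that strand. Whether the counting used strand is not given in the sources used here, so reads of the overlap may belong to either gene. Angptl1 had 32.3, 46.1 and 30.4 FPKM in labelled-knockout libraries, 31.2, 72.8 and 39.9 FPKM in aged controls and 94.2, 72.5 and 71.5 FPKM in young controls. All labelled-knockout libraries were below all young controls, and aged replicate 2 alone among the aged libraries reached the young range. The log2 fold change was -1.12 in labelled-knockout libraries against young controls (SE 0.33, adjusted p = 0.417 by limma), -0.33 against aged controls (SE 0.33, adjusted p = 0.626 by limma) and -0.80 in aged against young controls (SE 0.33, adjusted p = 0.199 by limma). The sign against aged controls turned to 0.0140 without aged replicate 2.

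The ratio of Angptl2 to Angptl1, a pair chosen after their values were seen, was 1.05, 0.251 and 0.944 in labelled-knockout libraries, 0.177, 0.117 and 0.168 in aged controls and 0.125, 0.200 and 0.130 in young controls. All labelled-knockout libraries were above all controls, replicate 2 by little, and aged and young controls overlapped. The ratio is taken within a library and so does not depend on the scaling between libraries. It is given as a description, with no test.

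The endothelial tyrosine kinase receptors of these ligands were at or near 0 in these sorted cells. Flt1, Kdr, Flt4, Tek and Tie1 reached at most 0.08, 0.10, 0.35, 0.51 and 0.95 FPKM in any library and did not pass the filter on low values. The co-receptors, which also bind semaphorins and are found on many cell types, were well detected. Nrp1 had 34.1, 22.9 and 33.1 FPKM in labelled-knockout libraries, 24.4, 46.3 and 29.1 FPKM in aged controls and 52.2, 45.5 and 32.8 FPKM in young controls, with overlap between all groups. Nrp2 had 17.4, 16.8 and 25.2 FPKM in labelled-knockout libraries, 11.4, 15.1 and 10.0 FPKM in aged controls and 24.1, 24.4 and 18.7 FPKM in young controls. All aged controls were below all other libraries for Nrp2, and it did not pass the adjusted test. The integrin subunits Itgav and Itga5 were detected in every library. Itgav had 12.8 to 15.55 FPKM in labelled-knockout libraries, 9.14 to 12.59 FPKM in aged controls and 15.67 to 18.68 FPKM in young controls, and Itga5 lay between 2.86 and 15.2 FPKM with overlap between all groups. Pirb had 0.15, 1.46 and 0.08 FPKM in labelled-knockout libraries, 6.39, 12.1 and 0.42 FPKM in aged controls and 0.48, 0.14 and 0.45 FPKM in young controls, so it was highest in the 2 aged controls with the most RNA of pan-leukocyte markers. None of these 3 passed the adjusted test. Endothelial markers were low as well. The sum of 11 of them was 3.51 to 9.71 FPKM in labelled-knockout libraries, 4.38 to 15.1 FPKM in aged controls and 4.46 to 5.84 FPKM in young controls. Of the aged sums of 11.9, 15.1 and 4.38 FPKM, 9.34, 11.6 and 2.07 FPKM were Pecam1, which leukocytes and platelets also express, and Cdh5 was at most 0.11 FPKM outside labelled-knockout replicate 2 (1.99 FPKM).

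**Figure D4:**
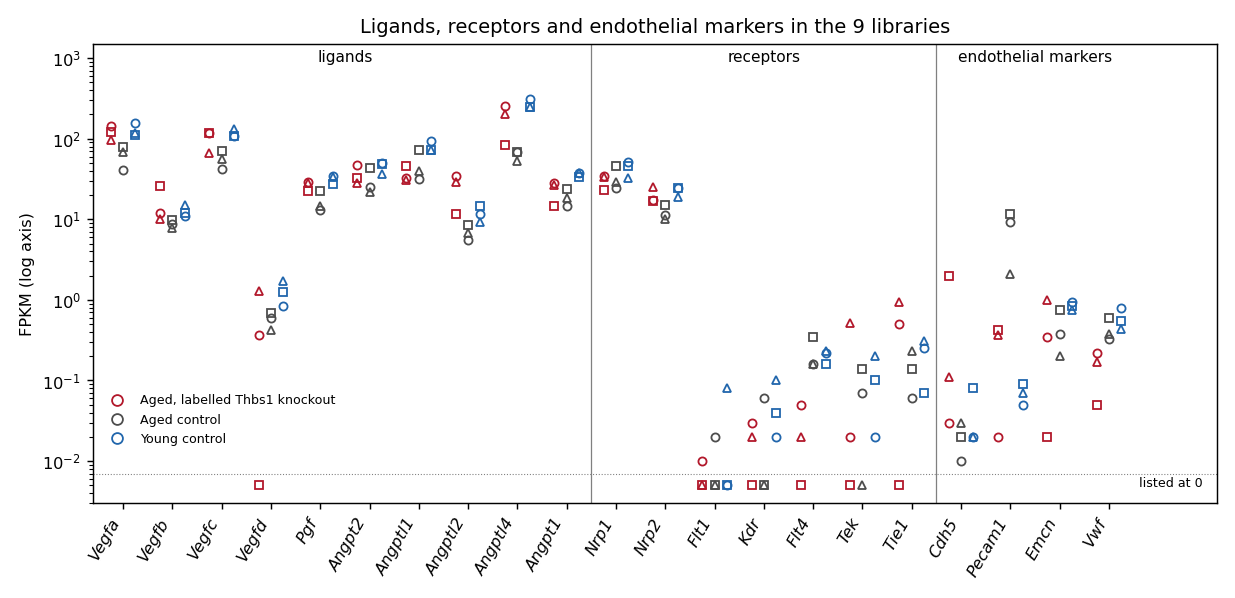
FPKM of the ligands, their receptors and 4 endothelial markers in every library on a log axis, with values listed at 0 drawn below the dotted line. The ligands other than Vegfd lie between 5.52 and 309.55 FPKM, whereas Flt1, Kdr, Flt4, Tek and Tie1 lie at 0.95 FPKM or below.

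Of 12 listed receptors and co-receptors, 7 were tested, and 2 of them, Itga9 and Lilrb4a, passed in some comparison. In aged against young controls the 1 of 7 that passed was Lilrb4a, and 4.04% of all genes tested passed. Between labelled-knockout libraries and aged controls the 2 of 7 were Itga9 and Lilrb4a, and 3.48% of all genes tested passed. Lilrb4a reached the filter on low values only through aged controls, where it is high, so neither count is read against these shares. The integrin subunit Itga9, which binds Vegfc, had 9.66, 4.72 and 6.61 FPKM in labelled-knockout libraries, 1.76, 2.34 and 2.42 FPKM in aged controls and 5.47, 5.27 and 3.52 FPKM in young controls. Aged controls were below all other libraries. Itga9 rose in labelled-knockout libraries against aged controls (log2 fold change 1.29, SE 0.28, adjusted p = 0.0408 by limma). The call held without replicate 2 labelled knockout (adjusted p = 0.00632 by limma) and was lost without any 1 of the other 8 libraries (0.063 to 0.249). It was also lost with no filter on low values (0.0875), with a minimum of 5 FPKM (0.0584), in a fit of the compared groups alone (0.144) and with the replicate block (0.0977).

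The other listed gene was Lilrb4a, an inhibitory receptor of myeloid and lymphoid cells. Whether it binds any of these factors is not given in the sources used here. It had 0.14, 0 and 0.57 FPKM in labelled-knockout libraries, 57.9, 115 and 6.80 FPKM in aged controls and 0.24, 0.41 and 0.26 FPKM in young controls. It was thus high in aged controls alone. Pan-leukocyte markers other than Cd52 were also highest there, at 597, 734 and 107 FPKM, whereas labelled-knockout replicate 2, whose sum with Cd52 was 584 FPKM, had Lilrb4a listed at 0. The gene reached the filter on low values only through the 3 aged controls, where it is high, so its values are a description and its difference from the other groups lends no support.

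Among genes that cut, release or hold these ligands in the matrix, 12 of 15 in the table were tested. In aged against young controls 0 passed, with 3 at an unadjusted p under 0.05. The share of all genes at that level was 21.7%. Between labelled-knockout libraries and aged controls 6 of 12 had an unadjusted p under 0.05, all higher in labelled-knockout libraries, against 19.8% of all genes. Of the 12, 1 passed the adjusted test and rose, against 3.48% of all genes tested. This was Hspg2, which encodes perlecan, a heparan sulphate proteoglycan that binds VEGF. It had 3.62, 9.54 and 7.27 FPKM in labelled-knockout libraries, 1.29, 2.27 and 1.47 FPKM in aged controls and 2.85, 3.93 and 2.16 FPKM in young controls. All labelled-knockout libraries were above all aged controls (log2 fold change 1.48, SE 0.33, adjusted p = 0.0474 by limma). The call was lost in 7 of 9 fits with 1 library left out (adjusted p up to 0.256 by limma), those that kept it being without labelled-knockout replicate 1 or 2. It was also lost when immunoglobulin genes were left out (0.0778), with median-ratio rescaling (0.0793), with no filter (0.104), in a fit of the compared groups alone (0.158) and with the replicate block (0.0676).

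Of 17 genes of oxygen sensing and the hypoxia response, which control Vegfa and Angptl4 in many cells, 16 were tested and 0 passed in any comparison by limma. Unadjusted p under 0.05 was reached by 1 of them in aged against young controls, by 2 between labelled-knockout libraries and aged controls, and by 0 between labelled-knockout libraries and young controls. The shares of all genes tested at that level were 21.7%, 19.8% and 8.63%. The median log2 fold change of the 16 was -0.10 in aged against young controls, beside -0.28 for all genes. In labelled-knockout libraries against aged controls it was 0.05, beside 0.07 for all genes. Hif1a, the oxygen-regulated transcription factor, had 25.01, 14.9 and 29.0 FPKM in labelled-knockout libraries, 20.0, 28.3 and 21.5 FPKM in aged controls and 31.4, 30.7 and 24.4 FPKM in young controls. These ranges overlapped in all comparisons.

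Angptl4 is also a known target of the PPAR nuclear receptors, and 11 of 13 genes listed for the PPAR and lipoprotein lipase axis were tested. Lpl itself, the enzyme that Angptl4 inhibits, fell in aged against young controls and was the 1 gene of this list to pass, with 3 at an unadjusted p under 0.05. Of all genes tested, 4.04% passed and 21.7% had an unadjusted p under 0.05 in that comparison. In both comparisons of labelled-knockout libraries 0 passed by limma, with 2 at an unadjusted p under 0.05 in each. The shares of all genes at that level were 19.8% against aged controls and 8.63% against young controls. Lpl had 169, 117 and 153 FPKM in labelled-knockout libraries, 126, 147 and 133 FPKM in aged controls and 363, 363 and 438 FPKM in young controls. Both aged groups were far below young controls and overlapped each other. The log2 fold change in aged against young controls was -1.51 (SE 0.23, adjusted p = 0.0130 by limma). The call was lost without aged replicate 1 (adjusted p = 0.112 by limma) or any 1 young control (up to 0.0792), and with the replicate block (0.0557). In labelled-knockout libraries against aged controls it was 0.10 (95% interval -0.41 to 0.61, adjusted p = 0.852 by limma), and against young controls it was -1.41 (SE 0.23, adjusted p = 0.161 by limma).

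Pparg, the adipogenic member of the PPAR family, had 58.4, 20.6 and 31.8 FPKM in labelled-knockout libraries, 11.4, 21.3 and 17.6 FPKM in aged controls and 44.2, 53.0 and 48.8 FPKM in young controls. Aged controls were below all young controls and overlapped labelled-knockout libraries through replicate 2, and Pparg did not pass the adjusted test. The ratio of Angptl4 to Lpl, also chosen after its values were seen, was 1.51, 0.720 and 1.32 in labelled-knockout libraries, 0.542, 0.473 and 0.395 in aged controls and 0.852, 0.688 and 0.562 in young controls. Every aged control was below every other library, and labelled-knockout replicates 1 and 3 were above all the rest. It is a description, with no test.

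The marrow stroma markers were themselves lower in aged than in young controls, with 9 of 9 below 0, against 74.5% of all genes tested, and Adipoq called. Each member was therefore also set against the summed level of these 9 markers in its own library, a measure added after the data were seen. Cxcl12 and Adipoq made up most of this sum in every library, for example 5190 and 1768 of 8507 FPKM in young replicate 1. Between labelled-knockout libraries and aged controls, 8 of the 9 markers were above 0 and Lepr was below (-0.33), so the markers did not all move with the sum. Angptl4 came to 2.82%, 1.10% and 3.08% of that sum in labelled-knockout libraries, 1.60%, 1.11% and 1.005% in aged controls and 3.64%, 2.71% and 2.57% in young controls. Aged controls remained below all young controls, and labelled-knockout replicate 2 lay within the aged range. After rescaling all genes this way, its log2 fold change in aged against young controls was -1.26 (adjusted p = 0.103 by limma), so the call was lost. The calls of Lpl, Itga9 and Hspg2 were lost on this scale too, with adjusted p of 0.137, 0.106 and 0.115 by limma. This rescaling moved the median log2 fold change of all genes to 0.38 in aged against young controls, where it was -0.28 as deposited, and to -0.39 in labelled-knockout libraries against aged controls, where it was 0.07.

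Vegfa came to 1.59%, 1.59% and 1.47% of the stroma sum in labelled-knockout libraries, 0.952%, 1.27% and 1.30% in aged controls and 1.86%, 1.202% and 1.23% in young controls. Labelled-knockout libraries were above all aged controls, and aged and young controls overlapped. Its log2 fold change in aged against young controls was -0.27 on this scale, and those of Vegfc and Pgf were -0.26 and -0.15. Vegfb, Angpt2, Angptl1 and Angptl2 changed sign on it, with values of 0.26, 0.18, 0.00161 and 0.0248. All of these lie below the median of all genes on this scale, 0.38.

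Angptl2 came to 0.376%, 0.151% and 0.435% of the stroma sum in labelled-knockout libraries, 0.129%, 0.136% and 0.128% in aged controls and 0.138%, 0.157% and 0.0972% in young controls. Labelled-knockout replicates 1 and 3 stayed above all controls, and aged controls lay within the young range. Angptl1 came to 0.356%, 0.603% and 0.460% in labelled-knockout libraries, 0.730%, 1.17% and 0.765% in aged controls and 1.11%, 0.787% and 0.746% in young controls. Labelled-knockout libraries were below all 6 controls, and aged and young controls overlapped. In labelled-knockout libraries against aged controls on this scale, the log2 fold change of Angptl2 was 1.08 (adjusted p = 0.124 by limma) and that of Angptl1 was -0.89 (adjusted p = 0.119 by limma), beside a median of all genes of -0.39.

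**Figure D5:**
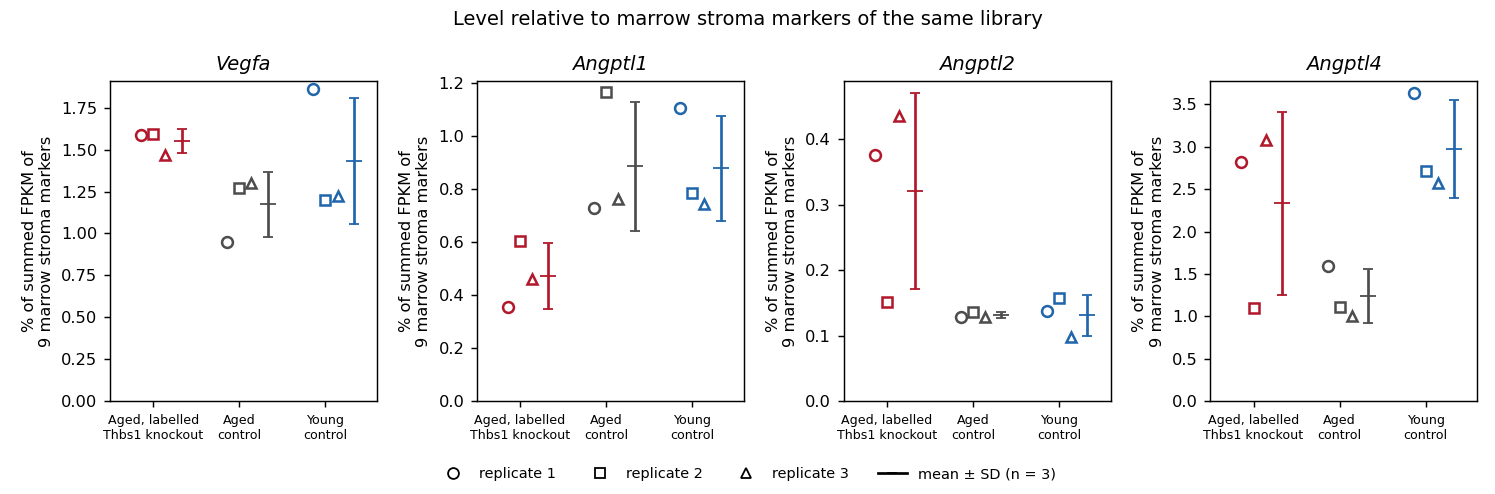
Level of Vegfa, Angptl1, Angptl2 and Angptl4 as a percentage of the summed FPKM of 9 marrow stroma markers in the same library, with points for replicates and bars for the mean ± SD (n = 3). Most of that sum is Cxcl12 and Adipoq. Aged and young controls overlap for Vegfa, Angptl1 and Angptl2 but not for Angptl4, and the labelled-knockout libraries lie below all controls for Angptl1.

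The genes whose levels ran most like those of the members over the 9 libraries are given as a description, since libraries of a group and the scaling of a library are shared by all its genes. Among tested genes with an established symbol, Vegfa was most like Bcl3 (Pearson r = 0.98), Vegfc most like Tmem176a (0.98), Pgf most like Siah1a (0.97) and Angptl1 most like Deptor (0.96), over 9 libraries. Angptl2 was most like the fibrillar collagen Col3a1 (0.97), the hedgehog receptor Ptch1 (0.97) and the cartilage collagen Col9a2 (0.96), and these were 0.95, 0.96 and 0.95 after median-ratio rescaling. Angptl4 was most like Endog (0.98), Gadd45g (0.98) and Prps1 (0.98). After rescaling Gadd45g stayed at 0.97, while Endog and Prps1 dropped to 0.83 and 0.81.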

How the data were processed

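The authors deposited 1 table of FPKM per gene for 9 RNA sequencing libraries, rounded to 2 decimals. Per the submitters' processing notes, the build was GRCm38 (mm10) and the tools included edgeR, STAR and FastQC 0.11.5, with no role stated. The sources used here do not give the annotation, the counter or its use of strand. Since FPKM depends on the library total, a few abundant genes lower all others. Groups came from the sample titles. Members and gene lists were chosen with earlier results of these data known. The text names all 9 members, listed genes past the threshold, Angpt1, Flt1, Kdr, Tek, Nrp1, Lpl, Pparg, Hif1a and Thbs1, and the genes most alike by Pearson correlation. Nrp2, Flt4, Tie1, Itgav, Itga5, Pirb, Pecam1, Cdh5, Cd52, Atf3 and Adipoq were named after their values were seen.

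A filter kept 11988 genes that reached 1 FPKM in 3 or more libraries, all 9 members among them. Log2(FPKM + 1) was tested with limma 3.58.1 (R 4.3.3) and a trend on intensity. All 9 libraries entered 1 fit of group means, with 6 residual degrees of freedom and no covariate. Adjusted p-values are Benjamini-Hochberg values over all genes tested, read at a threshold of 0.05. Fold changes on this scale understate those of low genes. Procedures were tested on simulated data. Alternatives were other pseudocounts, filters and scalings, no trend, array weights, a fit of the compared groups alone, leaving out 1 library at a time, and replicate number as a block. A rescaling to marrow stroma markers was added after the data were seen.

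Gene models came from GENCODE M21 (30192 of 30579 symbols, 98.7%). Steps between low values of short genes, times gene length, gave 17.6 to 27.65 M reads (M, mega) per library, searched between 2 and 60 M, with 98.8% to 100% of such values whole within 0.1 reads. Read estimates and the limit of 3 reads cover counting error only. Windows before transcription starts came from RefSeq (GRCm38.p6). FPKM are not counts, and no count test was made. Depth and figures were made in Python 3.11.15 (matplotlib 3.10.9, pandas 2.3.3, numpy 2.4.6).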

Additional observations from a re-analysis of the deposited data

How the results depend on the processing

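The number of members called in aged against young controls was 1 in the reported fit. It was 0 with no filter, 0 with the replicate block, 0 after rescaling to marrow stroma markers, 4 in a fit of the compared groups alone (Angptl4, Pgf, Vegfa, Vegfc; 18.7% of all genes called), 9 with array weights (61.9%), and 0 to 5 with 1 library left out (5 without labelled-knockout replicate 2, with 23.1% of all genes called, and 0 without any 1 control). In labelled-knockout libraries against aged controls it was 0 in the reported fit. It was 2 with median-ratio rescaling (4.38% of all genes called), with immunoglobulin genes left out (4.3%), and with median-ratio rescaling without labelled-knockout replicate 2 (11.4%), Angptl2 and Angptl4 each time. It was 1 with quantile normalization (Angptl2; 4.66%), 5 with array weights (52.9%), and 0 to 2 with 1 library left out (2 without replicate 2, 16%). Against young controls it was 0, then 3 with array weights (11.8%) and 1 with median-ratio rescaling without replicate 2 (Angptl2; 0.422%), and 0 with any 1 library left out. At an unadjusted p under 0.05 there were 5, 5 and 2 members in the 3 comparisons.

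All genes called numbered 484, 417 and 3 in the same order. With no filter they were 138 and 92 in the first 2 comparisons. With the replicate block they were 120 and 64. In fits of the compared groups alone they were 2155 and 14. Array weights gave 7419, 6347 and 1414. Median-ratio rescaling without replicate 2 gave 1266, 1348 and 50, and a minimum of 5 FPKM gave 199 in the second. With 1 library left out they were 4 to 2729, 13 to 1895 and 2 to 37. Same-numbered libraries had correlations of deviations between -0.288 and 0.302. With 3 libraries in each group, these values cannot tell whether the numbers pair the samples, and the labels do not say.

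Directions turned in these cases. In aged against young controls, rescaling to stroma markers gave 0.26 for Vegfb, 0.18 for Angpt2, 0.00161 for Angptl1 and 0.0248 for Angptl2. In labelled-knockout libraries against aged controls, Angpt2 was -0.28 under that rescaling, and Angptl1 was -0.58 to 0.0140 with 1 library left out (positive without aged replicate 2). Vegfd was 0.29 with quantile normalization, 0.40 with array weights, 0.0703 with median-ratio rescaling without labelled-knockout replicate 2 and -0.16 to 0.18 with 1 library left out (positive without that replicate; not tested in 3 of the 9 such fits), and Thbs1 ranged from -0.33 to 0.0939 with 1 library left out (positive without labelled-knockout replicate 1). Against young controls, Vegfa was 0.13 with median-ratio rescaling or immunoglobulin genes left out, 0.14 with stroma rescaling, and -0.23 to 0.0648 with 1 library left out (positive without young replicate 1 or labelled-knockout replicate 3). Vegfb was -0.16 with array weights, -0.14 with median-ratio rescaling without replicate 2 and -0.18 to 0.46 with 1 library left out (negative without replicate 2). Vegfc was -0.39 to 0.0215 with 1 library left out (positive without labelled-knockout replicate 3). The cause was not tested. Stroma rescaling moved the median of all genes to 0.38 in aged against young controls and -0.39 in labelled-knockout libraries against aged controls, against -0.28 and 0.07 as deposited, and median-ratio rescaling moved it to 0.01 and -0.04. Among the members, only Vegfd had under 100 estimated reads in every library.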
